A study of Mus musculus with 12 samples.

Results

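The complement and coagulation genes are 47 mouse genes of blood defence and clotting, among 52636 genes in a deposited table of kidney expression. They were taken by exact gene name and span complement, clotting and anticoagulant factors, plasminogen activation and the kinin system, without the fibrinogens and serpins. Kidney RNA came from wild-type C57BL/6 males, 8 weeks old, in 4 groups with 3 libraries each, from a study of the pregnane X receptor (PXR) in cisplatin kidney injury. The cisplatin+PCN group received both drugs: pregnenolone carbonitrile (PCN), a steroid that activates the rodent PXR, by gavage at 40 mg/kg daily, and 1 intraperitoneal injection of cisplatin at 20 mg/kg, a platinum compound toxic to tubule cells. The cisplatin group received corn oil and cisplatin, the PCN group PCN and saline, and the control group corn oil and saline. PCN or oil was given for 4 days before cisplatin or saline and for 3 days after, and kidneys were collected 4 days after the injection. The protocol text names the cisplatin group once among the PCN-pretreated animals and once among those given oil, and the groups are used here as the library titles give them. The labels do not tie libraries to animals, so p-values measure the spread between libraries, which may be technical in part.

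Complement is a set of plasma proteases and receptors in which C1q, lectin and alternative pathways meet at C3, whose cleavage leads to the membrane attack complex. Clotting starts when tissue factor meets factor VII, and thrombin then acts on fibrinogen and on protease-activated receptors, while protein C, protein S and plasminogen activators limit or dissolve the clot. Most of these plasma proteins are made by the liver, but injured tubule cells, macrophages, endothelium and fibroblasts are known to make some of them, and urokinase and kallikrein-kinin components are well known in renal tubules.

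Values are FPKM, fragments counted per kilobase and scaled between libraries to equal median ratios, so levels of different genes can be compared per length. A gene was tested when it had at least 1 FPKM in at least 3 of 12 libraries. Of the 47 genes 34 met this minimum and 13 did not. Of the 34, 26 had 1 FPKM or more in all 12 libraries, C5ar1, Procr, Kng1 and Bdkrb2 met the minimum in libraries with cisplatin alone, and F5 and F8 in libraries without cisplatin alone. These 6 genes reached the minimum through the groups where they are high, so counts over the tested genes and the p-values of these 6 are read as descriptions. The test was limma on log2(FPKM + 1), with Benjamini-Hochberg adjustment over 13540 genes and a threshold of 0.05. This scale understates the change of genes with low values. Each library held 18914607 to 26530485 reads on genes, and 1 FPKM stood for 18.7 to 27.2 reads per kilobase. Markers of the labelled tissue were present: 10 proximal tubule markers summed to 3225 to 8512 FPKM in cisplatin+PCN kidneys, 3232 to 3729 in cisplatin kidneys, 30777 to 34340 in PCN kidneys and 28589 to 33586 in control kidneys. All 6 tubular injury markers rose with cisplatin, and their sum was 8289 to 14593 FPKM in cisplatin+PCN kidneys, 13761 to 18073 in cisplatin kidneys, 429 to 464 in PCN kidneys and 460.0 to 501 in control kidneys. Cisplatin+PCN replicate 1 stood apart within its group, with Havcr1 at 22.8 FPKM against 321 and 262 in the other cisplatin+PCN libraries. It also had the highest proximal tubule sum of its group, 8512 FPKM against 3225 and 3818.

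Cisplatin was followed by higher transcript levels of C3, complement C7 and factor I, of the thrombin receptors, of tissue factor and of plasminogen activation genes. It was followed by lower levels of factor B, C8g, protein C and factors V and VIII. Between cisplatin and control, 18 of the 34 tested genes rose and 7 fell. Of all 13540 genes tested 63.9% passed in this comparison, 32% higher and 31.9% lower. The median log2 difference was 0.48 over the 34 genes and 0.01 over all genes. Between cisplatin+PCN and PCN, which share no library with the first comparison, 20 of 34 rose and 6 fell, against 46.9% of all genes passing, 23.5% higher and 23.4% lower. In that comparison 50.03% of all calls were higher, and 62.6% with values scaled to library totals, where again 20 of the 34 rose and 6 fell. PCN alone against control gave no call among the 34 in limma, with 1 gene, F2rl1 (-0.32 log2), at an unadjusted p under 0.05. Limma-voom on reads recovered from the FPKM also gave 0, and 0% of all genes passed in that comparison. In these whole-kidney samples, fewer cells of a type and less RNA per cell cannot be told apart.

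**Figure D1:**
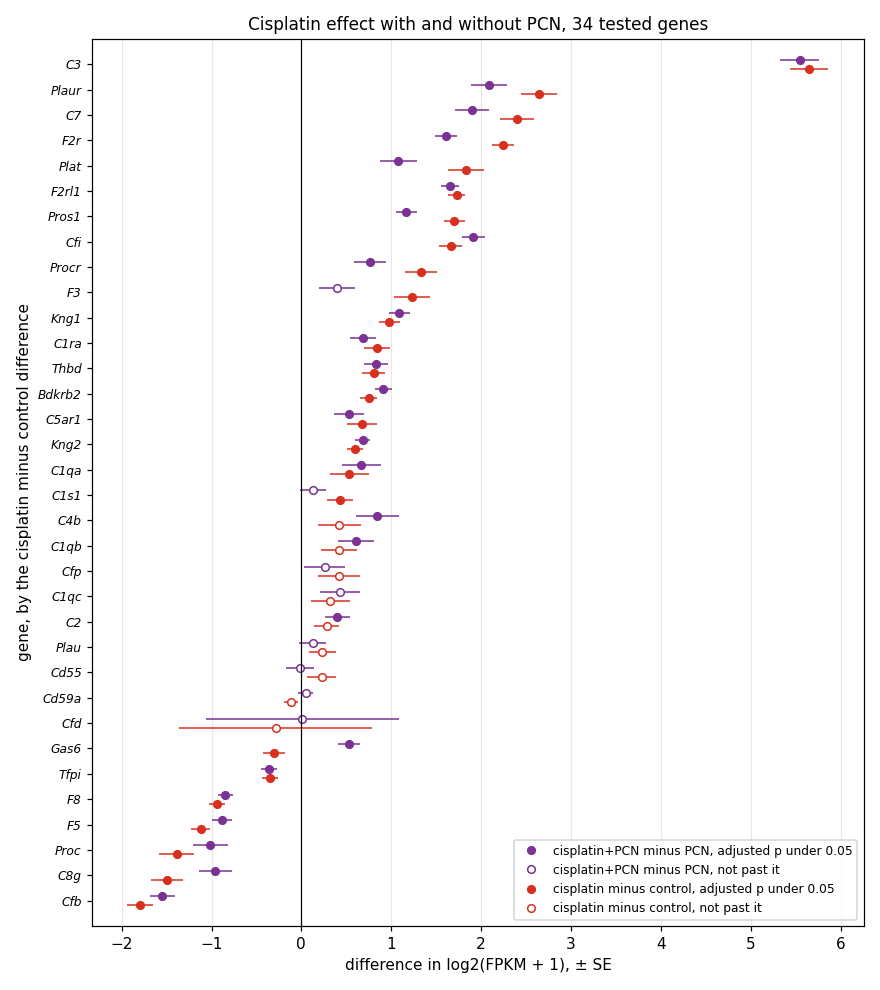
Difference in log2(FPKM + 1) with its standard error for the 34 tested genes, cisplatin+PCN minus PCN in purple above cisplatin minus control in red, filled where the adjusted p was under 0.05. C3 lies farthest right at 5.55 and 5.65, Cfb farthest left at -1.55 and -1.79, and Gas6 alone has filled points on opposite sides of 0.

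Per length, the 4 highest of the 47 genes in control kidneys were Gas6 at 156 ± 12.4, Plau at 135 ± 10.02, Kng2 at 107 ± 10.3 and Proc at 87.3 ± 7.91 FPKM (SD, n = 3). In cisplatin kidneys the order was C3 at 247 ± 3.52, Kng2 at 162 ± 11.97, Plau at 161 ± 35.2 and Gas6 at 127 ± 17.98 FPKM, where Kng2 and Plau did not differ beyond their spread. C3 itself averaged 3.99 ± 0.811 FPKM in control kidneys.

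The promoters of the genes with the largest rises and falls for which the RefSeq table holds a window are shown because these genes moved together in each direction. They are read 5′ to 3′ on the gene's strand, from 250 bases before to 50 bases after the RefSeq start, on GRCm38.p6, at chr17:57228087-57228386 (minus strand) for C3, chr7:24462233-24462532 (plus) for Plaur, chr2:25501670-25501969 (minus) for C8g and chr1:164151585-164151884 (plus) for F5. Capitals mark matches, on either strand, to the searched motifs.
C3: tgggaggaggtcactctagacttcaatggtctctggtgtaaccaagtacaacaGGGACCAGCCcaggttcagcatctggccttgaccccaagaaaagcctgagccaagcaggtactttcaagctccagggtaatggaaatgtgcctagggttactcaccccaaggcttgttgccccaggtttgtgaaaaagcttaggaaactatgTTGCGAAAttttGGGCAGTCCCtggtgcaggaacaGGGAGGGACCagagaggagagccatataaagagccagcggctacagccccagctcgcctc
Plaur: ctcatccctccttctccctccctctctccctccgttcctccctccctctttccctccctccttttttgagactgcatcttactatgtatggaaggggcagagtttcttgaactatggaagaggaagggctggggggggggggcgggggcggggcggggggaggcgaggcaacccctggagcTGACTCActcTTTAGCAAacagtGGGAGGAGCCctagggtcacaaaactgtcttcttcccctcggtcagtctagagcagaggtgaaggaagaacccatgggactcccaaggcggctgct
C8g: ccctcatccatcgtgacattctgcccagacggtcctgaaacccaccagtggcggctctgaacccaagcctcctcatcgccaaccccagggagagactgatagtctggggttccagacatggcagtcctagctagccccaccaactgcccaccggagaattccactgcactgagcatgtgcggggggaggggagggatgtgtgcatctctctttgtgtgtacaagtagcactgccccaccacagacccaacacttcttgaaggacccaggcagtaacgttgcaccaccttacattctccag
F5: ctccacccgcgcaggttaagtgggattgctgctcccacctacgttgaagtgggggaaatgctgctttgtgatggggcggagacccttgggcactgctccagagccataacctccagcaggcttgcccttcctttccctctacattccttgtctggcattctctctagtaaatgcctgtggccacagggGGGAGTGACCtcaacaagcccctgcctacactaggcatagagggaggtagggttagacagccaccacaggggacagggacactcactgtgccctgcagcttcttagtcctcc

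The C3 window held 1 C/EBP match (TTNNGCAA) from -45 to -38 and 3 NF-kB matches (GGGA, any 4 bases, CC) from -197 to -188, -33 to -24 and -10 to -1, counted from the start. In Plaur an AP-1 match (TGANTCA) lay from -69 to -63, a C/EBP match from -59 to -52 and an NF-kB match from -46 to -37. F5 held 1 NF-kB match from -62 to -53, and C8g held no match to any of the 7 motifs. None of the printed matches overlapped another. Of 32851 promoter windows in the table, 20.7% held the NF-kB letters, 10.8% the C/EBP letters and 7.81% the AP-1 letters. A window was found for 32 of the 47 genes. Among the 12 genes raised between cisplatin and control that had one, 7 held the NF-kB, 6 the C/EBP and 4 the AP-1 letters. Among the 5 lowered genes with a window, 2 held the NF-kB letters and 0 held the C/EBP or AP-1 letters. The STAT letters (TTCNNNGAA) were in 3 of those 12 and 0 of those 5 windows, against 8.30% of all windows. HNF1 half-site letters (GTTAATNA, 2.54% of all windows) and interferon response letters (TTTC, any 2 bases, TTTC; 3.44%) were in 3 and 1 of the 32 windows, and a PXR direct repeat (AGTTCA, any 3 bases, AGTTCA) was in 0 of them and in 0% of all windows. These matches describe letters in the windows, with no test of binding or of enrichment.

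C3, the protein on which all complement pathways converge, showed the largest rise of the 34 tested genes (ENSMUSG00000024164, chromosome 17, 57203970 to 57228136). C3 had 167, 245 and 281 FPKM in cisplatin+PCN kidneys, 249.1, 243 and 249.3 in cisplatin kidneys, 5.59, 3.00 and 3.33 in PCN kidneys and 4.56, 4.34 and 3.06 in control kidneys. The ranges with and without cisplatin did not overlap, and the lowest library with cisplatin was cisplatin+PCN replicate 1. The mean of cisplatin kidneys was 62.0 times that of control kidneys, a log2 difference of 5.65 ± 0.22 (SE, n = 3 each, limma adjusted p = 1.67e-08). The mean of cisplatin+PCN kidneys was 58.1 times that of PCN kidneys (5.55 log2, limma adjusted p = 2.9e-08). Cisplatin+PCN and cisplatin kidneys differed by -0.13 log2, with a 95% interval from -0.60 to 0.34, which did not pass (limma adjusted p = 0.705). The liver is the main source of plasma C3. The 14 hepatocyte markers summed to 172 to 609 FPKM in cisplatin+PCN kidneys, 136 to 213 in cisplatin kidneys, 727 to 732 in PCN kidneys and 631 to 737 in control kidneys, with 5 of them under 1 FPKM in all 12 libraries, and Alb, the liver's albumin gene, was at 0.510, 0.647 and 0.423 FPKM in cisplatin kidneys, against 1.92, 7.88 and 6.34 in control kidneys. The sum of the 14 was lower in every library with cisplatin than in every library without it. In kidneys without cisplatin most reads of the 14 were of Cyp2e1, 83680 in PCN and 78447 in control kidneys. Cyp2e1 had 7788 reads in cisplatin kidneys, and 26979, 2845 and 5285 in cisplatin+PCN replicates 1, 2 and 3. The fall of the sum therefore does not describe the list as a whole. Of these markers 8 reached the minimum. Between cisplatin and control Apoc3 (2.36 log2) and Serpina1b (1.12 log2) rose with C3, and Cyp2e1, Ttr, Alb and Apoa2 fell. Between cisplatin+PCN and PCN 2 rose, Apoc3 (2.13 log2) and Serpina1b (0.59 log2), and 3 fell. The part of hepatocyte marker transcripts in the C3 values was not tested.

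Cfb, the protease subunit of the alternative pathway convertase, moved the other way. Cfb had 3.70, 2.50 and 4.21 FPKM in cisplatin+PCN kidneys, 2.96, 2.28 and 2.07 in cisplatin kidneys, 11.7, 12.4 and 11.6 in PCN kidneys and 10.05, 12.1 and 10.49 in control kidneys. Every library with cisplatin was below every library without it. It fell to a mean of 2.44 ± 0.466 FPKM in cisplatin kidneys, against 10.9 ± 1.08 in control kidneys (-1.79 ± 0.14 log2, limma adjusted p = 1.51e-06), and by the same test it fell in cisplatin+PCN against PCN kidneys, by a difference of -1.55 log2 (adjusted p = 9.66e-06). The difference between cisplatin+PCN and cisplatin kidneys was 0.37 log2 and did not pass (adjusted p = 0.0972). Same-strand exons of a readthrough model, Gm20547, cover 79.5% of the exon bases of Cfb and 42.8% of those of C2 in GENCODE M21. Gm20547 is listed at 0 in all 12 libraries, and no source used here says how shared reads were counted, so the levels of Cfb and C2 are uncertain. Cfp, properdin, which stabilises that convertase, had 1.03, 1.92 and 1.98 FPKM in cisplatin+PCN kidneys, 1.94, 3.12 and 2.73 in cisplatin kidneys, 1.13, 1.38 and 1.04 in PCN kidneys and 1.79, 0.859 and 2.65 in control kidneys. The groups overlapped and none of the 4 pairwise comparisons passed (lowest limma adjusted p = 0.137).

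Cfd, factor D or adipsin, the protease that activates factor B and a product of fat cells, did not pass in any comparison, and its values were widely spread within groups. Cfd had 34.7, 7.46 and 10.54 FPKM in cisplatin+PCN kidneys, 18.6, 16.6 and 21.8 in cisplatin kidneys, 116, 3.42 and 5.57 in PCN kidneys and 63.5, 12.7 and 15.1 in control kidneys. PCN replicate 1, control replicate 1 and cisplatin+PCN replicate 1 were each several times the other libraries of their group. The 8 adipocyte markers summed to 125 FPKM in PCN replicate 1 and 26.8 and 31.9 in the other PCN libraries, and to 101 FPKM in control replicate 1 and 37.5 and 40.6 in the other control libraries. In cisplatin+PCN replicate 1 the sum was 34.6 FPKM, close to the 32.3 and 24.1 of the other cisplatin+PCN libraries. Cisplatin kidneys had sums of 38.6 to 71.6 FPKM. Adipoq, the fat cell hormone adiponectin, was at 11.8 FPKM in PCN replicate 1, and at 0.332 and 0.670 in the other PCN libraries. The part of adipocyte transcripts in the Cfd values was not tested. The PCN minus control difference of Cfd was -0.69 log2 with all libraries and -2.17 without PCN replicate 1, and the cisplatin minus control difference was -0.29 with all libraries and 0.42 without control replicate 1. None of these passed in limma (adjusted p from 0.772 to 1).

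**Figure D2:**
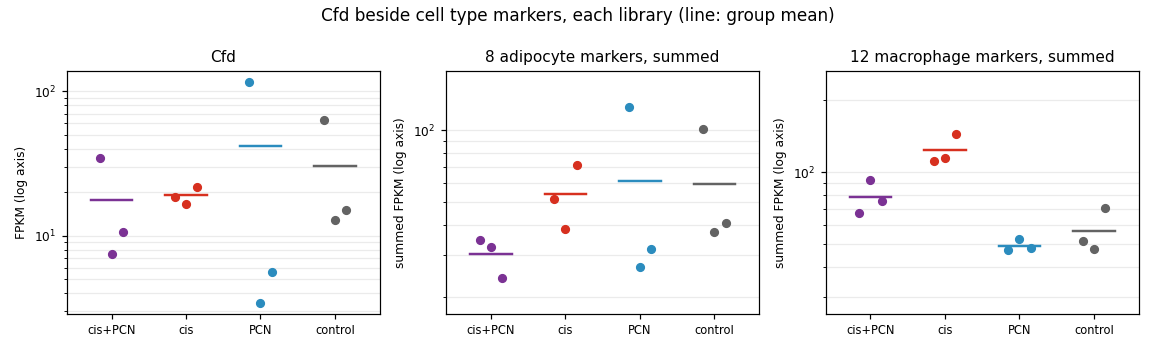
FPKM of Cfd, summed FPKM of 8 adipocyte markers and summed FPKM of 12 macrophage markers in each library on log axes, with a line at each group mean. PCN replicate 1 and control replicate 1 are highest for both Cfd (116 and 63.5 FPKM) and the adipocyte sum (125 and 101 FPKM).

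Some genes of the classical pathway rose, by small amounts. C1ra and C1s1 encode the proteases of the C1 complex, and C1qa, C1qb and C1qc its recognition subunits, which macrophages are known to make. Of 7 tested genes in this group, C1ra, C1qa and C1s1 rose between cisplatin and control, and C1qa, C1qb, C1ra, C2 and C4b rose between cisplatin+PCN and PCN. In the latter the limma adjusted p was 0.0248 for C1qa, 0.0262 for C1qb, 0.00303 for C1ra and 0.0318 for C2. C1ra had 6.54, 10.6 and 9.07 FPKM in cisplatin+PCN kidneys, 9.43, 9.40 and 9.85 in cisplatin kidneys, 4.63, 5.16 and 5.06 in PCN kidneys and 5.16, 5.74 and 3.92 in control kidneys. Each library with cisplatin was above each library without it, and C1ra rose by 0.84 ± 0.15 log2 in cisplatin against control kidneys (limma adjusted p = 0.00049). C1qa had 18.6, 30.6 and 34.9 FPKM in cisplatin+PCN kidneys, 26.8, 35.1 and 24.7 in cisplatin kidneys, 14.9, 17.9 and 17.5 in PCN kidneys and 18.2, 23.7 and 16.9 in control kidneys. Cisplatin libraries lay above control libraries, but cisplatin+PCN replicate 1 lay among the control values, and the call between cisplatin and control was close to the threshold (0.53 log2, limma adjusted p = 0.0476). In the same comparison C1qb differed by 0.42 log2 and C1qc by 0.32, and neither passed (limma adjusted p = 0.0848 and 0.219). C1s1 rose by 0.43 log2 between cisplatin and control (limma adjusted p = 0.0199). C4b, complement C4, had 3.47, 1.41 and 2.50 FPKM in cisplatin+PCN kidneys, 2.13, 2.05 and 1.41 in cisplatin kidneys, 1.31, 0.742 and 0.609 in PCN kidneys and 0.817, 1.78 and 0.903 in control kidneys. Its values overlapped between cisplatin and control kidneys (0.42 log2, limma adjusted p = 0.145), while it rose by 0.85 log2 between cisplatin+PCN and PCN (adjusted p = 0.0134). C4a, a near-identical copy, stayed at 0.0385 to 0.238 FPKM, and reads shared by the copies could be assigned to either, so both values are uncertain. Of 12 macrophage markers 8 were tested, and among these, between cisplatin and control, Cd68 and Cd14 rose, Csf1r and Aif1 fell, and Adgre1 (F4/80) did not pass. Their sum was 67.6 to 92.6 FPKM in cisplatin+PCN kidneys, 111 to 144 in cisplatin kidneys, 47.2 to 52.3 in PCN kidneys and 47.8 to 70.7 in control kidneys, and none of the 12 was at 0 in all libraries. The part of macrophage transcripts in the C1q values was not tested.

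The terminal pathway split, with C7 raised and C8g lowered. C7 joins the growing membrane attack complex, and C8g is the gamma chain of C8, a lipocalin. C7 had 11.8, 19.2 and 15.3 FPKM in cisplatin+PCN kidneys, 17.6, 18.9 and 23.4 in cisplatin kidneys, 2.87, 3.35 and 3.86 in PCN kidneys and 3.59, 3.33 and 2.06 in control kidneys (ENSMUSG00000079105, chromosome 15, 4988762 to 5063773). All libraries with cisplatin exceeded those without it. The mean of cisplatin kidneys was 6.66 times that of control kidneys (2.40 ± 0.19 log2, limma adjusted p = 1.66e-06), and that of cisplatin+PCN kidneys 4.59 times that of PCN kidneys (1.90 log2, adjusted p = 1.97e-05). The 10 fibroblast and pericyte markers summed to 47.1 to 73.2 FPKM in cisplatin+PCN kidneys, 80.3 to 90.1 in cisplatin kidneys, 53.0 to 54.0 in PCN kidneys and 37.0 to 64.2 in control kidneys. Of the 9 tested, 6 rose between cisplatin and control and 2 between cisplatin+PCN and PCN, and their part in the C7 values was not tested. C8g had 7.49, 4.05 and 4.82 FPKM in cisplatin+PCN kidneys, 2.78, 2.26 and 3.47 in cisplatin kidneys, 11.4, 10.4 and 11.9 in PCN kidneys and 8.24, 11.2 and 10.03 in control kidneys. Cisplatin libraries were lowest, cisplatin+PCN libraries next, and neither range reached that of control kidneys. C8g fell by 1.497 on the log2 scale between cisplatin and control (limma adjusted p = 3.41e-05) and was 0.73 log2 higher in cisplatin+PCN than in cisplatin kidneys (limma adjusted p = 0.0259).

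Among complement regulators, Cfi rose and the membrane regulators did not pass. Factor I, encoded by Cfi, cuts C3b and C4b into inactive fragments. Cfi had 11.5, 10.8 and 11.9 FPKM in cisplatin+PCN kidneys, 11.1, 11.4 and 7.72 in cisplatin kidneys, 2.58, 2.11 and 2.19 in PCN kidneys and 2.84, 2.31 and 2.24 in control kidneys (ENSMUSG00000058952, chromosome 3, 129835884 to 129875332). The ranges with and without cisplatin were well apart, and Cfi rose by 1.66 ± 0.13 log2 between cisplatin and control (limma adjusted p = 1.25e-06) and by 1.91 ± 0.13 between cisplatin+PCN and PCN (limma adjusted p = 1.15e-06). Cd59a, which blocks assembly of the membrane attack complex, stayed at 25.9 to 34.8 FPKM in all libraries, with a cisplatin minus control difference of -0.11 log2 and a 95% interval from -0.29 to 0.07. Cd55, decay-accelerating factor, lay at 2.75 to 5.01 FPKM with an interval from -0.13 to 0.58 for the same difference. C5ar1, the receptor for C5a on myeloid cells, had 0.387, 1.30 and 0.984 FPKM in cisplatin+PCN kidneys, 0.990, 1.40 and 1.40 in cisplatin kidneys, 0.289, 0.297 and 0.270 in PCN kidneys and 0.499, 0.273 and 0.470 in control kidneys. It rose by 0.68 log2 between cisplatin and control and by 0.52 between cisplatin+PCN and PCN (limma adjusted p = 0.00438 and 0.0238), and cisplatin+PCN replicate 1 lay within the control range. The 10 neutrophil markers summed to 5.15 to 29.5 FPKM in cisplatin+PCN kidneys, 22.1 to 35.6 in cisplatin kidneys, 1.15 to 2.22 in PCN kidneys and 2.96 to 4.37 in control kidneys. All 3 tested rose in both comparisons, 7 were under 1 FPKM in every library, and 1 was at 0 in all 12. The part of myeloid transcripts in the C5ar1 values was not tested.

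**Figure D3:**
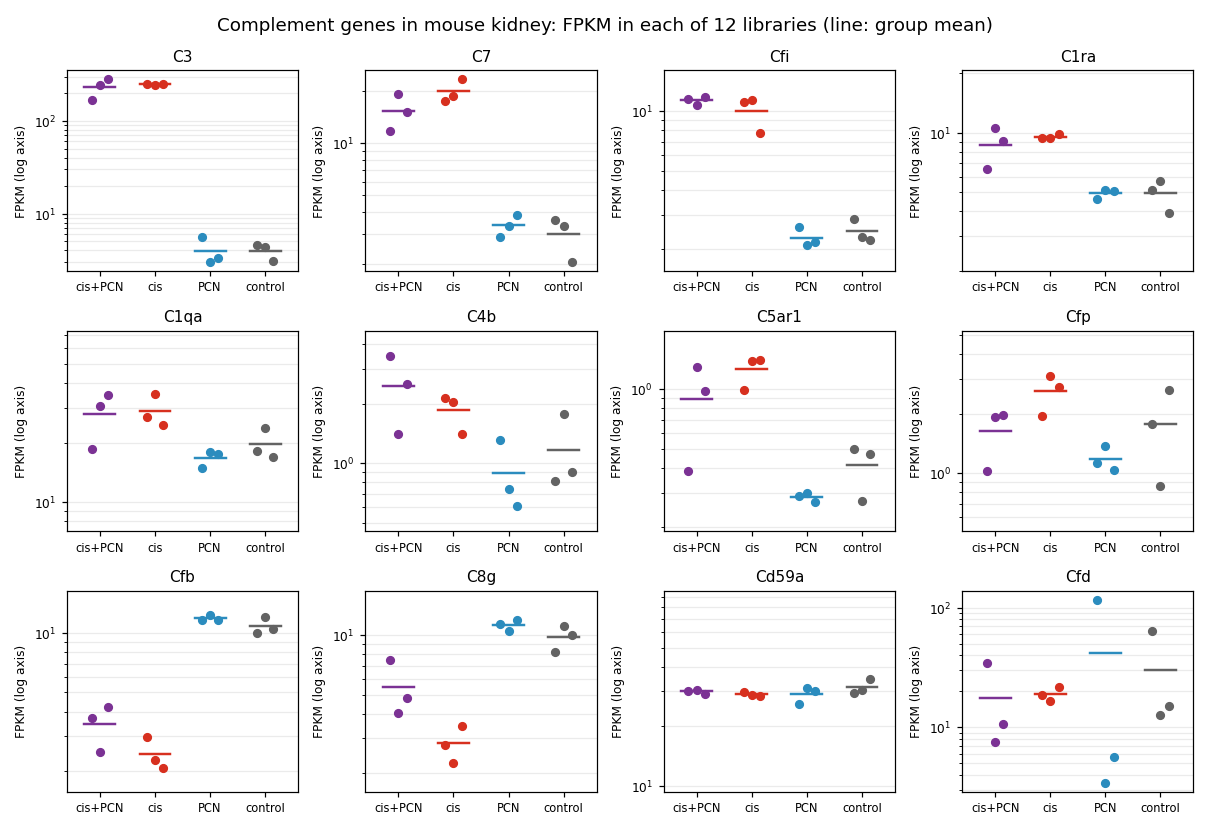
FPKM of 12 complement genes in each of 12 libraries on log axes, cisplatin+PCN in purple, cisplatin in red, PCN in blue and control in grey, with a line at each group mean. C3, C7, Cfi and C1ra are higher and Cfb and C8g lower in each library with cisplatin than in those without, and Cd59a stays between 25.9 and 34.8 FPKM.

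Tissue factor and the receptors for clotting proteases rose, while the cofactors of the clotting cascade fell. F3, tissue factor, the cell-surface trigger of clotting, had 8.16, 16.1 and 13.3 FPKM in cisplatin+PCN kidneys, 19.4, 20.2 and 24.5 in cisplatin kidneys, 8.18, 9.43 and 9.21 in PCN kidneys and 10.2, 8.09 and 7.41 in control kidneys (ENSMUSG00000028128, chromosome 3, 121723537 to 121735048). Cisplatin libraries lay above all others, and cisplatin+PCN libraries overlapped those without cisplatin. F3 rose by 1.23 ± 0.20 log2 in cisplatin against control kidneys (limma adjusted p = 0.000257), and the difference of cisplatin+PCN from PCN kidneys was 0.40 log2 and did not pass (adjusted p = 0.12). F2r, which encodes PAR1, the main thrombin receptor, had 46.6, 57.2 and 51.6 FPKM in cisplatin+PCN kidneys, 88.4, 76.0 and 75.7 in cisplatin kidneys, 14.9, 17.9 and 16.0 in PCN kidneys and 18.7, 16.4 and 13.6 in control kidneys (ENSMUSG00000048376, chromosome 13, 95601803 to 95618487). Its 4 groups held 3 separate levels, highest in cisplatin, next in cisplatin+PCN, and lowest in PCN and control kidneys, which overlapped. The mean of cisplatin kidneys was 4.93 times that of control kidneys (2.24 ± 0.12 log2, limma adjusted p = 1.44e-07), and that of cisplatin+PCN kidneys 3.184 times that of PCN kidneys (1.61 log2, adjusted p = 2.59e-06). F2rl1, which encodes PAR2, a receptor cut by trypsin-like proteases, had 26.0, 28.4 and 24.5 FPKM in cisplatin+PCN kidneys, 32.9, 35.1 and 36.6 in cisplatin kidneys, 8.72, 7.51 and 6.85 in PCN kidneys and 8.83, 9.92 and 10.8 in control kidneys. Cisplatin libraries were highest and cisplatin+PCN libraries next, and each PCN library lay below each control library, a difference that did not pass. F2rl1 rose by 1.73 ± 0.10 log2 between cisplatin and control and 1.65 ± 0.10 between cisplatin+PCN and PCN (limma adjusted p = 1.68e-07 and 4.83e-07).

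F5 and F8, the cofactors that speed the activation of prothrombin and of factor X, were low in every library and lower with cisplatin. F5 had 0.782, 0.370 and 0.409 FPKM in cisplatin+PCN kidneys, 0.308, 0.256 and 0.425 in cisplatin kidneys, 1.85, 1.71 and 1.81 in PCN kidneys and 1.73, 2.08 and 1.88 in control kidneys. F8 had 0.446, 0.440 and 0.447 FPKM in cisplatin+PCN kidneys, 0.168, 0.258 and 0.230 in cisplatin kidneys, 1.56, 1.74 and 1.49 in PCN kidneys and 1.17, 1.38 and 1.47 in control kidneys. For both genes every library with cisplatin was below 1 FPKM and every library without it above. Both thus reached the minimum only through libraries without cisplatin, and their p-values are read as descriptions. In cisplatin against control kidneys F5 fell by 1.12 and F8 fell by 0.94 on the log2 scale (limma adjusted p = 7.19e-06 and 4.18e-06), and the ratios of mean FPKM were 0.174 and 0.163. In cisplatin+PCN against PCN kidneys the differences were -0.88 and -0.85 (limma adjusted p = 8.21e-05 and 1.89e-05). Endothelial cells are the known source of factor VIII. The 12 endothelial markers, all tested, summed to 180.4 to 197 FPKM in cisplatin+PCN kidneys, 168 to 192 in cisplatin kidneys, 179.6 to 201 in PCN kidneys and 177 to 203 in control kidneys, and 2 rose and 4 fell between cisplatin and control. The part of endothelial transcripts in the F8 values was not tested.

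The anticoagulant genes divided between protein C and its receptors. Thbd, thrombomodulin, and Procr, the endothelial protein C receptor, together present protein C to thrombin. Procr had 1.45, 2.80 and 1.63 FPKM in cisplatin+PCN kidneys, 2.20, 3.39 and 3.09 in cisplatin kidneys, 0.667, 0.727 and 0.752 in PCN kidneys and 0.342, 0.842 and 0.462 in control kidneys, and rose by 1.33 ± 0.18 log2 between cisplatin and control and by 0.76 between cisplatin+PCN and PCN (limma adjusted p = 7.56e-05 and 0.00518). Thbd had 12.9, 14.4 and 12.01 FPKM in cisplatin+PCN kidneys, 10.49, 15.2 and 14.9 in cisplatin kidneys, 7.41, 7.13 and 6.24 in PCN kidneys and 7.84, 7.42 and 6.46 in control kidneys. Every library with cisplatin was above every library without, and Thbd rose by 0.80 and 0.83 log2 in the 2 comparisons (limma adjusted p = 0.000278 and 0.000417). Proc, protein C, had 65.1, 33.2 and 47.1 FPKM in cisplatin+PCN kidneys, 38.7, 30.4 and 29.7 in cisplatin kidneys, 91.4, 96.3 and 99.1 in PCN kidneys and 78.2, 92.1 and 91.6 in control kidneys (ENSMUSG00000024386, chromosome 18, 32123129 to 32139570). It fell to 0.377 of the control mean in cisplatin kidneys (-1.39 ± 0.19 log2, limma adjusted p = 0.000102) and to 0.507 of the PCN mean in cisplatin+PCN kidneys (-1.02 log2, adjusted p = 0.00153). The ranges with and without cisplatin did not overlap. Tfpi, the inhibitor of tissue factor, had 1.97, 1.82 and 1.52 FPKM in cisplatin+PCN kidneys, 1.83, 1.78 and 1.65 in cisplatin kidneys, 2.62, 2.92 and 2.13 in PCN kidneys and 2.61, 2.52 and 2.37 in control kidneys. It fell by 0.35 on the log2 scale between cisplatin and control (limma adjusted p = 0.00678) and by the same test it fell in cisplatin+PCN against PCN kidneys, by a difference of -0.36 log2 (adjusted p = 0.00851). The lowered genes Cfb, C8g, F5, F8 and Proc shared their direction with the proximal tubule markers, all 10 of which fell in both comparisons, and with the 6 erythroid markers, all of which also fell in both comparisons. Between cisplatin and control 3 of 4 thick ascending limb markers also fell, and of 6 distal and collecting duct markers 4 fell and 1 rose. Between cisplatin+PCN and PCN 2 of those 4 fell, and of those 6 markers 2 fell and 1 rose. The erythroid markers summed to 2.87 to 4.42 FPKM in cisplatin+PCN kidneys, 1.87 to 7.95 in cisplatin kidneys, 347 to 552 in PCN kidneys and 329.8 to 1198 in control kidneys, and 8 lymphocyte markers, none of which reached the minimum, to 0.419 to 0.516 FPKM in cisplatin+PCN kidneys, 0.298 to 0.488 in cisplatin kidneys, 2.11 to 3.10 in PCN kidneys and 2.02 to 2.30 in control kidneys. The part of tubule and blood cell transcripts in the values of these lowered genes was not tested.

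Pros1 and Gas6 encode related vitamin K dependent proteins. Protein S is the cofactor of protein C and, like Gas6, binds the TAM receptors Tyro3, Axl and Mertk, through which cells clear dying neighbours. Pros1 had 12.1, 16.7 and 15.1 FPKM in cisplatin+PCN kidneys, 19.6, 19.1 and 21.9 in cisplatin kidneys, 5.69, 6.17 and 5.88 in PCN kidneys and 5.86, 6.08 and 4.67 in control kidneys (ENSMUSG00000022912, chromosome 16, 62854307 to 62929346). It rose by 1.70 ± 0.12 log2 in cisplatin against control kidneys and by 1.17 ± 0.12 in cisplatin+PCN against PCN kidneys (limma adjusted p = 6.12e-07 and 1.86e-05), and cisplatin libraries lay above cisplatin+PCN libraries. Gas6 had 259.6, 195 and 229.7 FPKM in cisplatin+PCN kidneys, 124, 146 and 111 in cisplatin kidneys, 149, 162 and 159.7 in PCN kidneys and 149.5, 170.2 and 148 in control kidneys (ENSMUSG00000031451, chromosome 8, 13465374 to 13494490). Each cisplatin+PCN library was above each of the other 9 libraries, and each cisplatin library was below each of the rest. Gas6 was 0.84 ± 0.12 log2 higher in cisplatin+PCN than in cisplatin kidneys (limma adjusted p = 0.00626) and 0.53 ± 0.12 higher in cisplatin+PCN than in PCN kidneys (adjusted p = 0.00449). It fell by 0.30 on the log2 scale in cisplatin against control kidneys, with a limma adjusted p of 0.0497, and that call was kept in 7 of 23 alternative settings (limma adjusted p up to 0.187).

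Plasminogen activation genes rose with cisplatin apart from urokinase. Plat encodes tissue plasminogen activator, Plau urokinase and Plaur the urokinase receptor. Plaur had 7.60, 15.8 and 11.8 FPKM in cisplatin+PCN kidneys, 20.9, 24.3 and 22.2 in cisplatin kidneys, 1.92, 1.97 and 1.80 in PCN kidneys and 3.29, 2.08 and 2.96 in control kidneys (ENSMUSG00000046223, chromosome 7, 24462484 to 24475968). Cisplatin libraries lay highest, cisplatin+PCN libraries next, and the others far below. The mean of cisplatin kidneys was 8.10 times that of control kidneys (2.65 ± 0.20 log2, limma adjusted p = 1.19e-06), and that of cisplatin+PCN kidneys 6.18 times that of PCN kidneys (2.08 log2, adjusted p = 1.41e-05). Plat had 15.4, 30.3 and 21.6 FPKM in cisplatin+PCN kidneys, 34.6, 47.2 and 47.5 in cisplatin kidneys, 8.88, 10.01 and 10.3 in PCN kidneys and 12.6, 11.4 and 9.89 in control kidneys (ENSMUSG00000031538, chromosome 8, 22757727 to 22782844), a rise of 1.83 ± 0.20 log2 between cisplatin and control and of 1.08 ± 0.20 between cisplatin+PCN and PCN (limma adjusted p = 1.82e-05 and 0.00136). Plau, among the highest genes of the set in every group, had 146, 185 and 171 FPKM in cisplatin+PCN kidneys, 137, 201 and 144 in cisplatin kidneys, 132, 162 and 164 in PCN kidneys and 124, 137 and 144 in control kidneys. The groups overlapped, and the cisplatin minus control difference was 0.23 log2 with a 95% interval from -0.10 to 0.56 (limma adjusted p = 0.198). The rises of Plaur, Plat, F2r, F2rl1, F3 and C3 went with those of all 6 tubular injury markers and of the macrophage and neutrophil sums given above. Of the 8 tested macrophage markers, however, 3 rose, 2 fell and 3 did not pass between cisplatin and control (median -0.27 log2). The part of these cells in the rises was not tested.

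In the kinin system both kininogens and the bradykinin B2 receptor rose. Kng2 had 196, 186 and 176 FPKM in cisplatin+PCN kidneys, 161, 151 and 175 in cisplatin kidneys, 111, 117 and 118 in PCN kidneys and 95.7, 109.6 and 116 in control kidneys, and rose by 0.60 ± 0.09 log2 in cisplatin against control kidneys (limma adjusted p = 0.000121). Kng1 had 2.05, 1.91 and 1.51 FPKM in cisplatin+PCN kidneys, 1.496, 1.44 and 1.81 in cisplatin kidneys, 0.208, 0.306 and 0.469 in PCN kidneys and 0.186, 0.403 and 0.340 in control kidneys, a rise of 0.98 ± 0.12 log2 (adjusted p = 2.83e-05). As a share of Kng2 FPKM, Kng1 was 0.858% to 1.05% in cisplatin+PCN kidneys, 0.930% to 1.04% in cisplatin kidneys, 0.187% to 0.396% in PCN kidneys and 0.194% to 0.367% in control kidneys. The genes are closely related copies, and reads of Kng2 assigned to Kng1 could give part of the Kng1 value, so it is uncertain. Bdkrb2, the receptor for bradykinin released from kininogen, had 1.73, 1.44 and 1.54 FPKM in cisplatin+PCN kidneys, 1.22, 1.36 and 1.31 in cisplatin kidneys, 0.334, 0.389 and 0.378 in PCN kidneys and 0.296, 0.266 and 0.542 in control kidneys. It rose by 0.75 log2 between cisplatin and control and by 0.91 between cisplatin+PCN and PCN (limma adjusted p = 4.95e-05 and 2.67e-05), with no overlap between libraries with and without cisplatin. Kng1 and Kng2 rose by 1.09 and 0.68 log2 in cisplatin+PCN against PCN kidneys (adjusted p = 2.81e-05 and 9.29e-05).

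**Figure D4:**
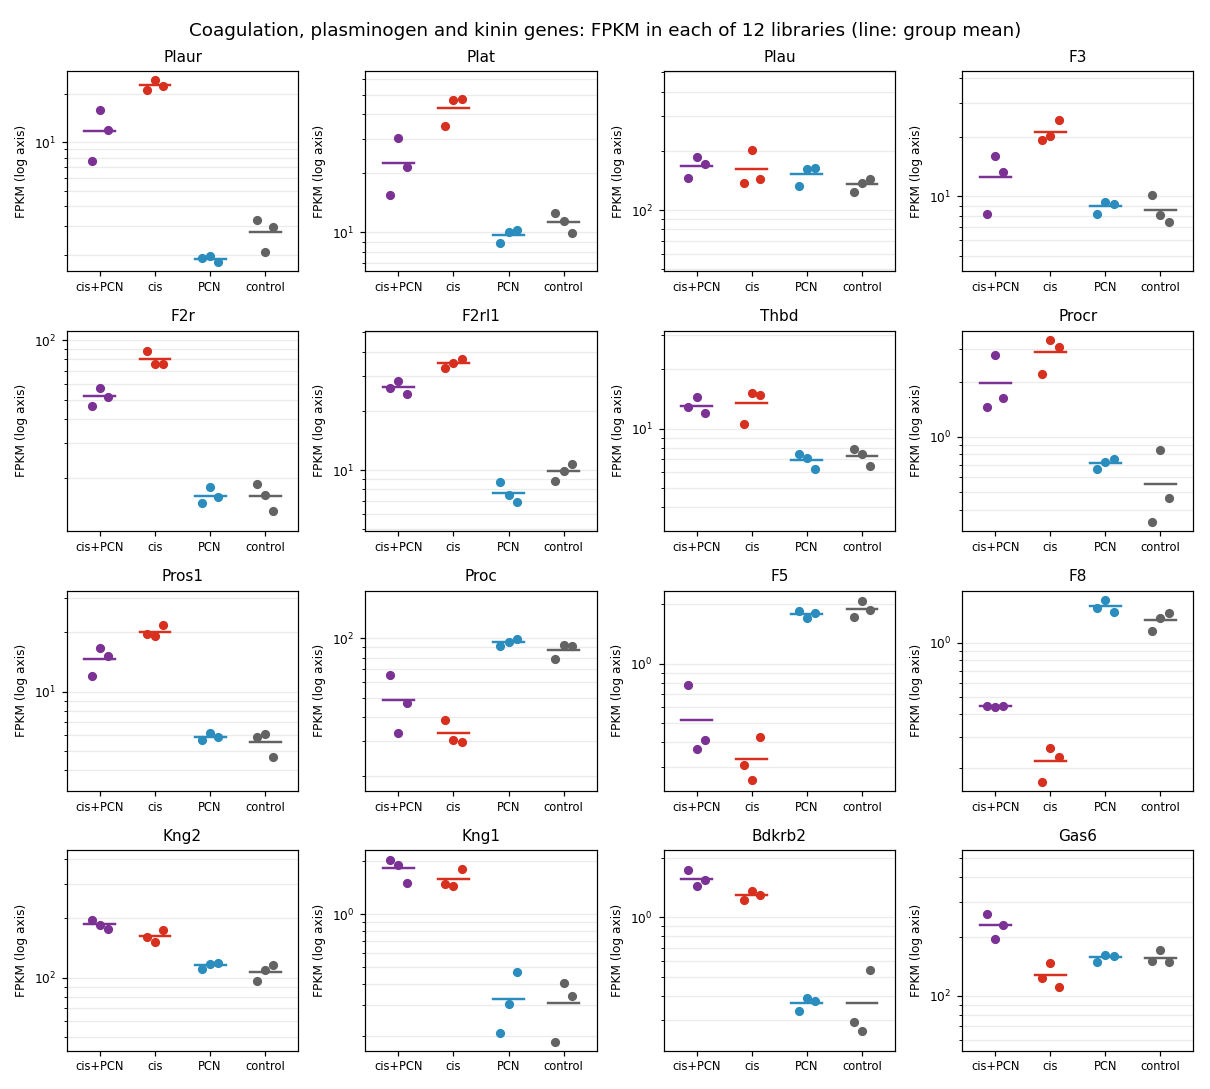
FPKM of 16 coagulation, anticoagulant, plasminogen and kinin genes in each of 12 libraries on log axes, with a line at each group mean. Plaur, Plat and F2r are highest in cisplatin, lower in cisplatin+PCN and lowest in PCN and control kidneys, Gas6 is highest in cisplatin+PCN kidneys, and Plau overlaps across groups between 124 and 201 FPKM.

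The comparison of cisplatin+PCN with cisplatin asks what PCN changed in kidneys that had received cisplatin. Gas6 and C8g were higher in cisplatin+PCN kidneys, and F3, F2r, F2rl1, Pros1, Plat and Plaur were lower, 8 of the 34 tested genes against 15.6% of all genes passing, 7.97% higher and 7.61% lower. The median log2 difference was -0.03 over the 34 genes and 0 over all genes. Plat had a mean of 22.4 ± 7.47 FPKM in cisplatin+PCN kidneys and 43.1 ± 7.38 in cisplatin kidneys (SD, n = 3), 0.521 times as much (-0.95 ± 0.20 log2, limma adjusted p = 0.0162). Plaur averaged 11.7 ± 4.08 FPKM in cisplatin+PCN kidneys and 22.5 ± 1.71 in cisplatin kidneys (-0.93 ± 0.20 log2, limma adjusted p = 0.0163). F3 averaged 12.5 ± 4.01 FPKM in cisplatin+PCN kidneys and 21.4 ± 2.75 in cisplatin kidneys (-0.77 ± 0.20 log2, limma adjusted p = 0.0281). Differences of F2r, Pros1 and F2rl1 were -0.62, -0.45 and -0.39 log2 (limma adjusted p = 0.0126, 0.0293 and 0.0246). For each of these 6 genes every cisplatin+PCN library lay below every cisplatin library, and the cisplatin libraries are shared with the comparison of cisplatin with control. C3, C7 and Cfi differed by -0.13, -0.37 and 0.18 log2 and did not pass (limma adjusted p = 0.705, 0.206 and 0.342).

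These calls depended on which libraries entered the fit. Without cisplatin+PCN replicate 1, 5 of the 34 passed: Gas6 at 0.74, F2r at -0.55, Plat at -0.72, Plaur at -0.68 and F3 at -0.51 log2 (limma adjusted p from 0.015 to 0.049). F2rl1 at -0.39, Pros1 at -0.32 and C8g at 0.51 did not (limma adjusted p from 0.056 to 0.072). Without cisplatin+PCN replicate 3, 3 passed, Gas6, F2r and Plaur, and without cisplatin replicate 3 also 3, Gas6, F2r and C8g. Without cisplatin replicate 1, 5 passed, Gas6, F2r, F2rl1, Plat and Plaur. With the 6 libraries of the 2 groups alone in the fit, none of the 34 passed in limma (lowest adjusted p = 0.104), and 3 of all genes did. With the same 13540 genes kept in that fit, 1 of all genes passed, against 2110 with all 12 libraries. Among the 26 genes that passed between cisplatin+PCN and PCN, cisplatin+PCN replicate 1 was the library nearest to the PCN mean in 15, replicate 2 in 5 and replicate 3 in 6. Over all 6352 genes that passed there, these shares were 50.2%, 19.6% and 30.1%. In the same comparison with cisplatin, 7 of 10 proximal tubule markers were higher and 1 of 6 tubular injury markers was lower. Of the 8 tested macrophage markers 1 was higher, 1 (Cd14) was lower and 6 did not pass. The part of these cells in the differences was not tested.

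**Figure D5:**
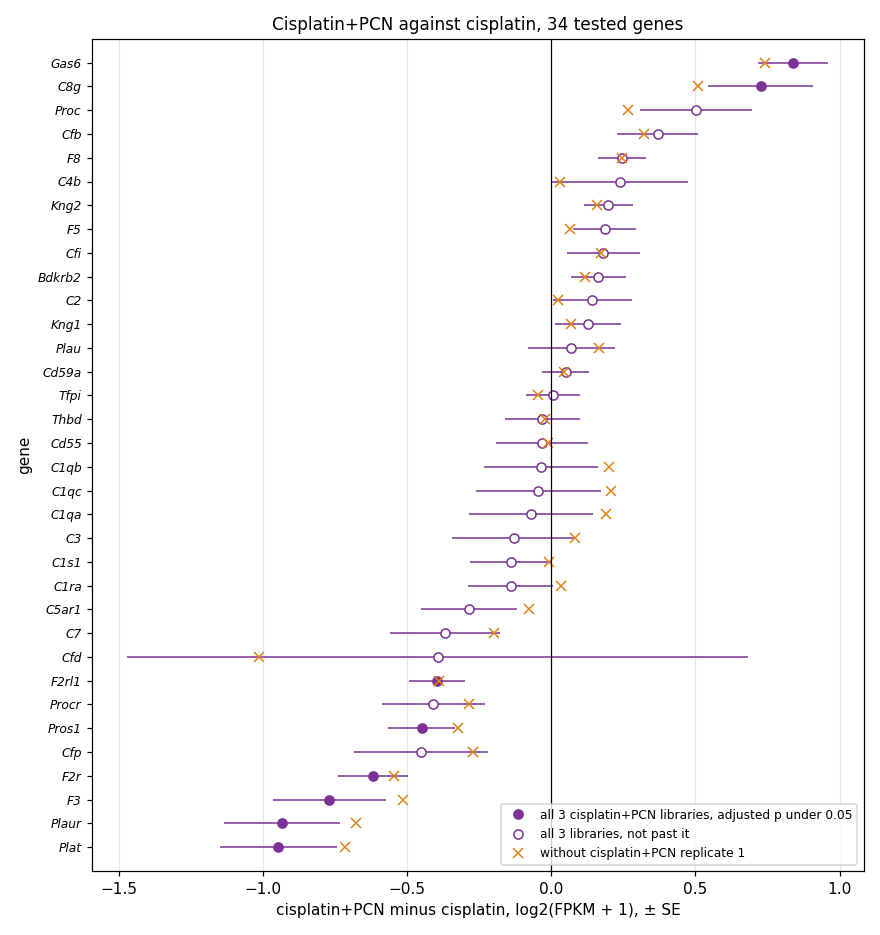
Cisplatin+PCN minus cisplatin difference in log2(FPKM + 1) with its standard error for the 34 tested genes, filled where the adjusted p was under 0.05, and a cross for the difference without cisplatin+PCN replicate 1. Gas6 lies at 0.84 with all libraries and 0.74 without that library, and Plat at -0.95 and -0.72.

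Whether the effect of cisplatin differed with PCN was tested as an interaction, (cisplatin+PCN minus PCN) minus (cisplatin minus control). None of the 34 passed in limma, 6 had an unadjusted p under 0.05, and 0.111% of all genes passed. The lowest adjusted p was that of Gas6, with an interaction of 0.83 ± 0.17 log2 (limma adjusted p = 0.102), and limma-voom on recovered reads called 1 of the 34, Gas6. The other 5 under the unadjusted threshold were F2r at -0.63, Pros1 at -0.54, F3 at -0.83, Plat at -0.75 and Procr at -0.57 log2 (limma adjusted p from 0.121 to 0.251). C3 had an interaction of -0.10 log2 with a 95% interval from -0.77 to 0.57.

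The 13 genes under the expression minimum are described from their values. C6, a terminal pathway component, had 0.325, 0.438 and 0.617 FPKM in cisplatin+PCN kidneys, 0.618, 0.762 and 0.682 in cisplatin, 0.173, 0.189 and 0.103 in PCN and 0.119, 0.0543 and 0.0886 in control kidneys, from 5 to 75 reads a library. F13a1, the catalytic chain of factor XIII, had 0.171, 0.356 and 0.158 FPKM in cisplatin+PCN kidneys, 0.609, 0.829 and 0.528 in cisplatin, 0.143, 0.0302 and 0.0549 in PCN and 0.0873, 0.0651 and 0.173 in control kidneys. Cisplatin libraries were above all others for F13a1, and for C6 all libraries with cisplatin were above those without it. Vwf, von Willebrand factor of endothelium and platelets, lay at 0.340 to 0.741 FPKM, Masp1, a lectin pathway protease, at 0.191 to 1.06 FPKM, and C3ar1, the C3a receptor, at 0.139 to 0.640 FPKM. In a fit of all genes with any value, 32.1% of genes passed between cisplatin and control, 16.3% higher and 15.7% lower. There C6, F13a1, Vwf and Masp1 rose and Klkb1, plasma prekallikrein, fell (limma adjusted p from 8.7e-05 to 0.038), and F13a1 was the 1 gene of the 13 that passed between cisplatin+PCN and cisplatin (-0.43 log2, adjusted p = 0.029), where 3.19% of genes passed, 1.42% higher and 1.77% lower. Between cisplatin+PCN and PCN, where 20.5% passed, 9.92% higher and 10.6% lower, C6 rose and Klkb1, F10 and Plg fell (limma adjusted p from 0.00198 to 0.0213). The 9 platelet markers summed to 5.07 to 5.52 FPKM in cisplatin+PCN kidneys, 7.91 to 8.60 in cisplatin kidneys, 3.07 to 4.14 in PCN kidneys and 3.27 to 4.82 in control kidneys. Of these 5 were under 1 FPKM in every library, and of 3 tested 1 rose between cisplatin and control and 2 did not pass. Itgb3 had 1427 reads in cisplatin and 126 in control kidneys, and Itga2b 544 and 576. The part of platelet transcripts in the F13a1 and Vwf values was not tested. The liver-made proteases and C5 stayed near 0. Prothrombin (F2) lay at 0.0349 to 0.229 FPKM, factor VII (F7) at 0 to 0.144 FPKM, factor X (F10) at 0.0434 to 0.294 FPKM, plasminogen (Plg) at 0 to 0.238 FPKM, C5 (Hc) at 0 to 0.0586 FPKM, Masp2 at 0.131 to 0.323 FPKM and Klkb1 at 0.0420 to 0.485 FPKM. Masp2 shares 54.9% of its exon bases with Tardbp on the opposite strand, which had 11.3 to 21.6 FPKM, and Klkb1 43.2% with a same-strand model listed at 0. No source used here says whether the libraries keep strand, and both values are uncertain.

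Several genes of the set lie side by side on the chromosomes given in the deposited table (GRCm38), and neighbours did not always move alike. C2, at 34862604 to 34898265 on chromosome 17, differed by 0.28 log2 between cisplatin and control and did not pass (limma adjusted p = 0.0937), while Cfb at 34856374 to 34862518 fell. F2rl1 at 95511732 to 95525227 and F2r at 95601803 to 95618487 on chromosome 13 rose by 1.73 and 2.24 log2 in the same comparison. C6 at 4727175 to 4815456 and C7 at 4988762 to 5063773 on chromosome 15 were both higher in all libraries with cisplatin than in all libraries without it. C1qb, C1qc and C1qa lie within 136880129 to 136898803 on chromosome 4, with log2 differences of 0.42, 0.32 and 0.53, of which the last passed.

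Other genes of the same pathways were read from a list of 69, of which 68 had a single row and 38 were tested. Among the 38, Proz reached the minimum only in libraries without cisplatin, and Tyro3 and Cpb2 only in libraries with it. Counts over the 38 and the p-values of such genes are therefore read as descriptions. Between cisplatin and control 12 of the 38 rose and 18 fell, between cisplatin+PCN and PCN 11 rose and 10 fell, and between cisplatin+PCN and cisplatin 5 were higher and 2 lower. In that order 78.9%, 55.3% and 18.4% of the 38 passed, against 63.9%, 46.9% and 15.6% of all genes. Between cisplatin and control 31.6% of the 38 rose and 47.4% fell, against 32% and 31.9% of all genes. PCN against control and the interaction gave 0 in limma, with 3 and 10 at an unadjusted p under 0.05. The largest rises with cisplatin were those of S100a10 at 2.78 ± 0.17, Clu at 2.74 ± 0.23, Anxa2 at 2.16 ± 0.26 and St14 at 1.32 ± 0.07 log2 (highest limma adjusted p = 3.25e-05). S100a10 and Anxa2 form a plasminogen-binding complex at the cell surface, clusterin (Clu) blocks membrane attack complex assembly, and St14 is the membrane protease matriptase. S100a10 averaged 303 ± 79.2 FPKM in cisplatin+PCN kidneys, 397 ± 45.1 in cisplatin kidneys, 53.6 ± 2.40 in PCN kidneys and 57.0 ± 4.11 in control kidneys (SD, n = 3). The largest falls were those of F13b at -2.53 ± 0.31, C8a at -1.79 ± 0.21, Ace at -1.73 ± 0.18 and Proz at -1.31 ± 0.09 log2 (highest limma adjusted p = 3.88e-05). F13b is the carrier chain of factor XIII, C8a the alpha chain of C8, Ace the angiotensin- and bradykinin-cleaving enzyme and Proz protein Z. Between cisplatin+PCN and cisplatin, C8a at 0.86 and C1rl at 0.72 log2 were higher, and Anxa2 at -0.95 and St14 at -0.26 lower (limma adjusted p from 0.019 to 0.035). Of 23 alternative settings the calls of C8a and C1rl were each kept in 18, that of Anxa2 in 11 and that of St14 in 8. C8a, like C8g above, was lower in cisplatin than in control kidneys and higher in cisplatin+PCN than in cisplatin kidneys, 2 comparisons that share the cisplatin libraries.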

How the data were processed

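FPKM per gene were deposited by the authors for 12 libraries. HISAT2 2.0.5 and featureCounts 1.5.0-p3, and DESeq2 1.16.1 and edgeR 3.18.1 with no role, are named in the submitters' processing notes. The notes name build mm8, but the deposited coordinates match GENCODE M21 (GRCm38) exactly for 40 of the 47 genes, and no source used here gives the strand handling. The FPKM had equal median-of-ratios factors in all libraries (over 17819 genes above 0 in all 12), so the deposited values were already on that scale, and factors from library totals ran from 0.909 to 1.06. FPKM times gene length gave whole reads for 100% of values (within 0.001), from 18914607 to 26530485 per library.

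The limma package (3.58.1, under R 4.3.3) was run on log2(FPKM + 1), with variance as a trend of intensity, for 13540 genes with at least 1 FPKM in at least 3 of 12 libraries, in 1 fit of 4 group means. The 5 comparisons were two-sided with Benjamini-Hochberg adjustment over all genes tested. With 3 against 3 libraries an exact permutation test cannot go below 0.1, so none was run. Within groups, each of 12 pairs of libraries differed beyond counting noise, with a chi-square of 4.97 to 78.7 per gene. The procedure was tested on simulated data.

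The 47 genes, the lists of other pathway genes and of cell markers and the tests were chosen with earlier results of these data known. Values in every library are given for up to 10 genes per direction and comparison with the largest change among those that passed, and the others are given by range or count. Of other pathway genes, the 4 largest changes per direction between cisplatin and control and the 2 largest between cisplatin+PCN and cisplatin are named. Itgam, with 2 rows in the table, was left out, and 1 macrophage marker is not reported here by itself. Promoter windows are from RefSeq on GRCm38.p6. In 11 of the 47 genes exons overlap another gene. The alternatives changed the pseudocount (0.1 or 0.5), the filter (none, or a mean of at least 5 FPKM), the scaling (library totals or quantile) and the model (fits of the compared groups alone, also with the same genes tested, with array weights, with the replicate number as a block, or limma-voom on recovered reads), or left out each library in turn.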

Additional observations from a re-analysis of the deposited data

Results flagged for a closer look

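Gas6 moved in opposite directions under cisplatin without and with PCN. With PCN, each cisplatin+PCN library lay above each PCN library, and without PCN each cisplatin library lay below each control library. The interaction was 0.83 log2 and did not pass (limma adjusted p = 0.102). Over the alternatives its adjusted p ran from 0.00122 with array weights to 0.217, and it passed with limma-voom (0.0443), without cisplatin replicate 2 (0.0133) and without cisplatin+PCN replicate 2 (0.0207). In these fits 4315, 68, 1057 and 505 of all genes passed the interaction, in that order, against 15 in the fit of FPKM. The fall of Gas6 between cisplatin and control (limma adjusted p = 0.0497) was kept in 7 of 23 alternatives.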

How the results depend on the processing

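Calls are counted over 23 alternatives, and genes that a filter removed were tested in fewer, at least 18. Of the 25 calls between cisplatin and control 22 held in every alternative that tested the gene, and C1qa, C1s1 and Gas6 did not. Leaving out 1 library gave 22 to 26 calls there. Of the 26 calls between cisplatin+PCN and PCN 21 held in every alternative that tested the gene. C1qa was kept in 18 of 23, C1qb in 17 of 23, C2 in 15 of 22, C4b in 21 of 22 and C5ar1 in 13 of 18. Leaving out 1 library gave 21 to 27, and a mean of at least 5 FPKM gave 17 calls because 23 of the 47 genes were then tested. For cisplatin+PCN against cisplatin none of the 8 calls held under every alternative: only the groups compared gave 0, also with the same genes tested, no filter 5 and array weights 14, where the weights did not fully converge. With array weights 6862 of all 13540 genes passed in that comparison, against 2110 in the fit of FPKM. Leaving out 1 library gave 3 to 11 calls, with 5 without cisplatin replicate 1, 3 without cisplatin replicate 3, 5 without cisplatin+PCN replicate 1 and 3 without cisplatin+PCN replicate 3, and Gas6 and F2r were called in all 12 of these fits. For the interaction, with 0 calls, array weights gave 8 (C1qb, C1qc, C8g, F2r, F3, Gas6, Plat and Pros1) and limma-voom 1 (Gas6), and leaving out 1 library gave 0 to 2. Of all 13540 genes, 4315 passed the interaction with array weights and 68 with limma-voom, against 15 in the fit of FPKM. PCN against control gave 0 under every alternative. The causes were not tested where none is given.

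Equal replicate numbers did not pair the libraries: deviations of 18 same-number pairs correlated between -0.281 and 0.366, and those of 36 other pairs between -0.401 and 0.328. A replicate block gave 25 calls for cisplatin against control, 8 for cisplatin+PCN against cisplatin, 26 for cisplatin+PCN against PCN and 0 for the others. Median-of-ratios scaling left the deposited FPKM as they were and is not counted as an alternative. Scaling to library totals, chosen after seeing the data, as was the fit of the compared groups with the same genes, gave 25, 7, 26, 0 and 0 calls for cisplatin against control, cisplatin+PCN against cisplatin, cisplatin+PCN against PCN, PCN against control and the interaction. It kept the direction of each change called in the fit of FPKM. The median of all genes between cisplatin+PCN and PCN was 0.09 log2 with it and 0.10 with limma-voom, which also uses library totals, against 0.01 in the fit of FPKM. A value under 1 FPKM rests on few reads per kilobase.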
